A study of Mus musculus with 4 samples.

Results

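The genes described here encode the nuclear subunits of the mitochondrial respiratory chain and of the ATP synthase. They were taken by their symbols, a rule chosen with earlier results of these data known. The symbols were the Ndufa, Ndufb, Ndufc, Ndufs and Ndufv series, the 4 Sdh genes, the Uqcr series, Cox4 to Cox8 and the Atp5 series. A gene was taken where a probe set of the array carried that symbol and no other, and it was read from its probe set of highest mean. This gave 81 genes of 18194 with a probe set of their own, and 76 of them were bright enough to be tested. By complex, the tested genes were 34 of 35 in complex I, 4 of 4 in complex II, 8 of 8 in complex III, 13 of 17 in complex IV and 17 of 17 in complex V.

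The study hybridised total RNA of mouse mesangial cells, the contractile support cells of the kidney glomerulus, to 4 whole-transcriptome arrays. There were 2 arrays labelled low glucose, from an experiment on low and high glucose and glucosamine, and 2 labelled TGFBeta, from an experiment on TGF-beta1, a cytokine that drives matrix production in scarring kidneys. The sources used here state no strain, age, passage, dose, exposure time or glucose level of the TGF-beta1 cells, so TGF-beta1 and any difference in glucose between the experiments cannot be told apart. Nothing in the labels says that arrays of 1 group came from separate cultures. A p-value therefore rests only on spread among these arrays, and that spread may be technical. The low number of arrays limits the precision of every value. In a bulk sample fewer cells of a type and less RNA per cell cannot be told apart.

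The arrays fell into pairs that crossed the groups. With replicates 1 and 2 named LG1 and LG2 for low glucose and TGF1 and TGF2 for TGF-beta1, the arrays LG1 and TGF2 formed pair 1 and the arrays LG2 and TGF1 formed pair 2. The pairs were read from 18 probe sets of spike-ins, which carry none of the RNA under study. Over all genes tested the correlation was 0.988 within pair 1 and 0.99 within pair 2, against 0.954 and 0.955 between arrays of the same group. The pair therefore entered the fit as a block, a choice made with earlier results of these data known. Differences are TGF-beta1 minus low glucose on the scale of log2(intensity + 46.88) after quantile normalisation, and this scale understates the change of dim genes. A gene is said to have risen or fallen where limma's blocked fit gave an adjusted p under 0.05 over all 13565 genes tested. Deposited intensities had medians of 78.3 to 99.6 per array, and the ratio of the 3' to the 5' control probe sets was 1.18 to 1.51 for actin and 0.948 to 1 for Gapdh. For actin it was 1.18 in both arrays of pair 1, 1.51 in LG2 and 1.32 in TGF1, and its part in the results was not tested.

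The respiratory chain passes electrons from NADH (through complex I) and from succinate (through complex II) by way of coenzyme Q to complex III, then by cytochrome c to complex IV, which reduces oxygen. Complexes I, III and IV pump protons across the inner mitochondrial membrane, and complex V, the ATP synthase, uses the return flow to make ATP. Most subunits are encoded in the nucleus and a few in mitochondrial DNA. Coactivators of the PGC-1 family and the factors NRF1 and GABP are known regulators of the nuclear genes.

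The subunit genes read slightly lower in the TGF-beta1 arrays across all 5 complexes. Of the 76 tested, 70 (92.1%) were lower and 6 higher, beside 50.1% lower and 49.9% higher among all genes tested. This count rests on all arrays. It was 54 of the 76 without LG1, 64 without LG2, 60 without TGF1 and 61 without TGF2. With all arrays the median difference was -0.11, which is 7.12% lower, beside 0.00 over all genes. The median of the subunit genes was -0.14 within pair 1 and -0.07 within pair 2. Lower values within both pairs were found for 59 of the 76 (77.6%), beside 34.5% of all genes. In 29 (38.2%) both TGF-beta1 arrays lay below both low glucose arrays, beside 11.1% of all genes, and in 1, Ndufa4l2, both lay above, beside 9.78%. The changes were small, since 6 (7.89%) were lower by 0.2 or more before rounding, beside 9.22% of all genes. On an array basis the median of the 76 genes was 11.52 and 11.54 in LG1 and LG2, and 11.44 and 11.32 in TGF1 and TGF2. The arrays of the 2 groups did not overlap in this median.

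In limma's blocked fit 17 subunit genes (22.4%) fell, beside 10.6% of all genes, and 1 (1.32%) rose, beside 7.95% of all genes. In either direction 18.6% of all genes were called. These calls rest on the block. Without it limma called 0 of the 76 and 0 of all 13565 genes. At an unadjusted p under 0.05 the fit without the block listed 269 genes (1.98%), among them 3 subunit genes (3.95%). These 3, Ndufv3, Ndufa6 and Uqcrh, were all lower, beside 0.715% of all genes that were lower at that level. Blocking left a single residual degree of freedom, with a prior estimated as infinite. Each standard error, and so each p-value, then follows the brightness of the gene and not the spread of its own arrays. With the prior of 2.79 degrees of freedom taken from the fit without the block, 0 were called. Under that prior 16 subunit genes (21.1%) had an unadjusted p under 0.05, beside 16.5% of all genes.

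**Figure D1:**
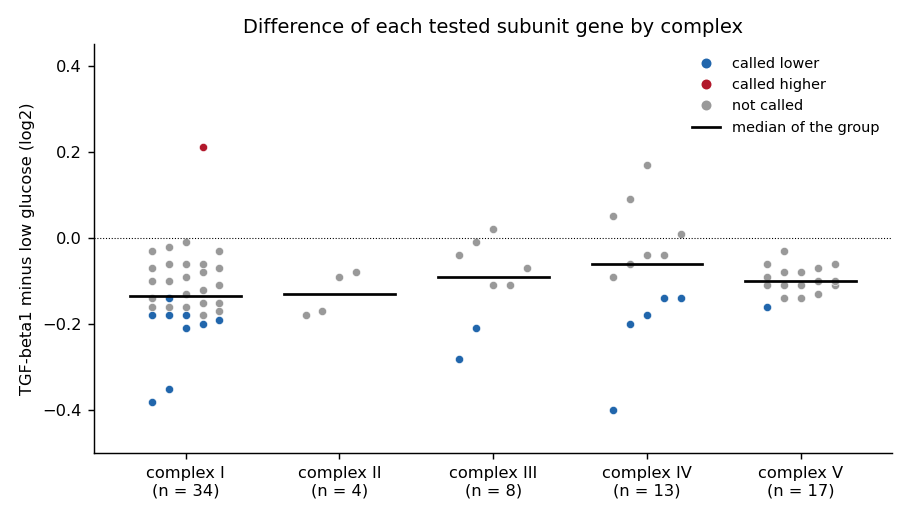
Each point is 1 tested subunit gene, placed by its complex on the horizontal axis and by its log2 difference, TGF-beta1 minus low glucose (2 arrays each), on the vertical axis, with a bar at the median of each complex, blue for genes called lower in limma's blocked fit, red for the 1 called higher and grey for the rest. Of the 76 points 70 lie below 0, and with all 4 arrays the complex medians run from -0.14 to -0.06.

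Brightness was set beside the result because these probe sets are among the brighter ones. Among the 68 subunit genes with a mean log2 intensity of 10 or more, 66 (97.1%) were lower, with a median of -0.11. All 1704 genes tested at that brightness had a median of -0.01, and 54.3% were lower. The blocked fit called 16 (23.5%) of the bright subunit genes lower, beside 9.57% of the bright genes. The 8 subunit genes under that level were 4 lower and 4 higher. Within the 68, the difference was weakly related to the mean level across genes (Pearson's r 0.28, Spearman's rho 0.25, as a description of genes that share the same 4 arrays).

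**Figure D2:**
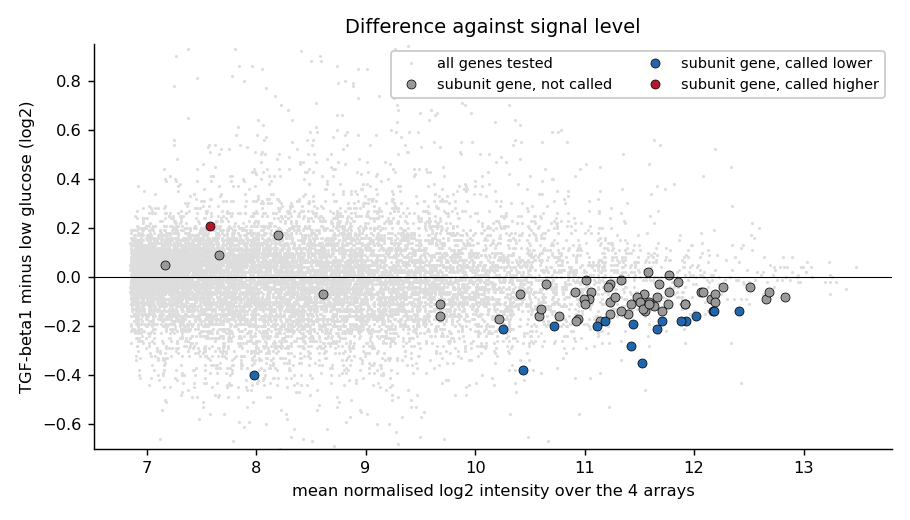
The horizontal axis is the mean normalised log2 intensity over the 4 arrays and the vertical axis the log2 difference, TGF-beta1 minus low glucose, with all tested genes as pale dots and the subunit genes as large points (blue called lower, red called higher, grey not called). Genes beyond the vertical limits are not drawn. Most subunit genes sit at a mean of 10 or more, in a narrow band below 0.

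Other probe sets of the same genes were mostly lower too. Beside the probe set chosen, the subunit genes had 88 others with 1 symbol, of which 76 passed the brightness filter and 65 read lower, with a median of -0.09. Of the 52 at a mean log2 intensity of 10 or more, 49 read lower, with a median of -0.10 and a range from -0.32 to 0.02. In 9 of the 76 the sign was opposite to that of the probe set chosen, among them Ndufb2 (0.05 against -0.10), Ndufa7 (0.01 against -0.06) and Cox6a2 (-0.05 against 0.09). Readings of 1 gene come from the same 4 RNA samples and are not replicates.

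Promoter sequences were searched for 4 motifs of factors known to act on these genes, since the subunit genes read lower together. RefSeq promoter windows of build GRCm38.p6 were matched by gene ID for 66 of the 81 genes, and the 250 bases before the start were read on both strands, with the first window taken for the 5 genes that had several. The NRF1 motif, GCGCA and GCGC with any base between them, was found in 10 of the 66 (15.2%), beside 3.86% of all 27025 promoters. The GABPA motif CCGGAAG, the core that ETS factors bind, was found in 11 (16.7%), beside 7.05%. The ESRRA motif AAGGTCA was found in 5 (7.58%), beside 4.05%, and the YY1 motif AAGATGGC in 0, beside 1.59%. At least 1 of the 4 motifs was found in 20 (30.3%), beside 15.4% of all promoters. The 27025 promoters were not limited to genes tested here and not matched for base composition, and the part of either was not tested. In the stretches shown next, which overlap no other of these motifs, the letters of the motif are in capitals, each is written 5′ to 3′ on the gene's own minus strand, and each shows a gene whose values are given here or the spread of the motif over complexes I, II, IV and V:
Ndufa5, chr6:24527692-24527731: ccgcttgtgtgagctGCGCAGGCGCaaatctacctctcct
Ndufa8, chr2:36049344-36049383: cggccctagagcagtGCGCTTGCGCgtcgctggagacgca
Ndufs5, chr4:123718260-123718299: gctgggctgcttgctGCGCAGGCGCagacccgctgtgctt
Sdha, chr13:74350241-74350353: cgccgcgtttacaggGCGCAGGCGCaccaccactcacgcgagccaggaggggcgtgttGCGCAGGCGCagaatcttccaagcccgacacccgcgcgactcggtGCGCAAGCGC
Sdhd, chr9:50603904-50603943: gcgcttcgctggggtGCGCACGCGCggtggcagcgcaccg
Cox6a1, chr5:115349051-115349135: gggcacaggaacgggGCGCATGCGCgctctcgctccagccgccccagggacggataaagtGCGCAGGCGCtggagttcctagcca
Atp5g2, chr15:102671065-102671104: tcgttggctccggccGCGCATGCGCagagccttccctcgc
Atp5h, chr11:115420036-115420075: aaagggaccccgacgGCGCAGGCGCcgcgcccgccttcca
Atp5k, chr5:108434425-108434464: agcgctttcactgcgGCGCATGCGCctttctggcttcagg
Uqcrh, chr4:116075071-116075095: gaggagtatgccgcaCTTCCGGcca

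The first 9 stretches carry the NRF1 motif, in 3 copies in Sdha, 2 in Cox6a1 and on the opposite strand in Ndufa8. The tenth, of Uqcrh, carries the GABPA motif on the opposite strand. Of the 11 genes with the GABPA motif Uqcrh alone fell, and it was picked for display after its values were seen. Ndufb4 also had the NRF1 motif, but its 1 probe set was too dim to be tested. Among tested genes the median difference was -0.13 in the 9 with the NRF1 motif and -0.11 in the 52 without it. For the GABPA motif it was -0.09 in the 11 with it and -0.11 in the 50 without it. The difference between genes with and without a motif was not tested. A match is a run of letters in this window and says nothing about binding in these cells.

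Complex I, the NADH dehydrogenase, had a median of -0.14 (-0.15 and -0.09 within pairs 1 and 2). Of its 34 tested genes 33 were lower, 9 fell and 1 rose, beside 10.6% of all genes that fell and 7.95% that rose. By their names, the 34 include Ndufa4, now placed with complex IV, and its paralogue Ndufa4l2, the 1 that rose. Neither is counted under complex IV here. In 12 of the 34 both TGF-beta1 arrays lay below both low glucose arrays, beside 11.1% of all genes. The largest fall was that of Ndufa6, an accessory subunit at the junction of the matrix arm and the membrane arm. It read 10.63 and 10.64 in low glucose, against 10.33 and 10.18 in TGF-beta1 (replicates 1 and 2 in each), with no overlap. The difference was -0.38 ± 0.078 (SE, n = 2 per group), 23% lower, with an adjusted p of 3.28e-05 in limma's blocked fit.

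Ndufv3, the small accessory subunit of the NADH-binding module, read 11.71 and 11.67 in low glucose, against 11.37 and 11.31 in TGF-beta1. Both TGF-beta1 arrays were again the lower ones, and it fell by 0.35 ± 0.063 (SE), 21.7%, with an adjusted p of 7.19e-07 in limma's blocked fit. Ndufa6 and Ndufv3 moved alike within the pairs, by -0.45 and -0.30 for Ndufa6 and by -0.40 and -0.30 for Ndufv3 in pairs 1 and 2. Each was read by a single probe set. Leaving out any 1 array kept Ndufa6 between -0.46 and -0.30 and Ndufv3 between -0.39 and -0.32.

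The core subunits of complex I carry the flavin and the iron-sulfur clusters along which electrons travel. All 6 tested were lower, with a median of -0.16, and 2 of them fell, beside 10.6% of all genes. Ndufv2, an iron-sulfur protein of the NADH-binding module, read 11.47 and 11.60 in low glucose, against 11.46 and 11.23 in TGF-beta1. It fell by 0.19 ± 0.064 (SE), with an adjusted p of 0.024 in limma's blocked fit, although LG1 and TGF1 read nearly the same. Ndufs7, which carries the last cluster before coenzyme Q, read 10.78 and 10.86 in low glucose, against 10.80 and 10.44 in TGF-beta1, and the groups overlapped. Its fall of 0.20 ± 0.075 (SE) had an adjusted p of 0.0471 in limma's blocked fit and came mostly from pair 1 (-0.33, against -0.06 in pair 2).

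Ndufs1, the largest core subunit, read 9.73 and 9.79 in low glucose, against 9.62 and 9.57 in TGF-beta1, a difference of -0.16 ± 0.082 (SE) that did not pass (adjusted p = 0.17). Ndufs3 differed by -0.15 ± 0.068 (adjusted p = 0.113). Ndufv1, which binds NADH and the flavin, differed by -0.06 ± 0.071 (adjusted p = 0.602), and Ndufs8 by -0.02 ± 0.058 (adjusted p = 0.865). In Ndufs1 and Ndufs3 both TGF-beta1 arrays lay below both low glucose arrays even so.

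The supernumerary subunits of complex I surround the core and are needed for its assembly and stability. All 26 tested were lower, with a median of -0.14, and 7 of them fell, beside 10.6% of all genes. Besides Ndufa6 and Ndufv3 these were Ndufa13 (-0.18 ± 0.056, adjusted p = 0.0139 in limma's blocked fit), Ndufa3 (-0.18 ± 0.060, 0.0211), Ndufb8 (-0.14 ± 0.052, 0.0441), Ndufa2 (-0.18 ± 0.069, 0.0493) and Ndufa5 (-0.21 ± 0.080, 0.0494). Ndufa13, also known as GRIM-19, read 12.07 and 11.98 in low glucose, against 11.90 and 11.80 in TGF-beta1, with no overlap. Ndufa5, whose promoter stretch stands above, read 10.16 and 10.56 in low glucose, against 10.34 and 9.96 in TGF-beta1. Its groups overlapped, as did those of Ndufa2, Ndufa3 and Ndufb8, and their calls follow from differences within pairs. For Ndufa5 these were -0.20 in pair 1 and -0.22 in pair 2. The Ndufb subunits, which sit in the membrane arm, had a median of -0.10 with 10 of 10 lower. Ndufb8 was the 1 of these 10 that fell, beside 10.6% of all genes.

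Ndufa4l2 was the only subunit gene that rose. It is a paralogue of Ndufa4 known for its induction by hypoxia, and Ndufa4, although named as a complex I subunit, is now placed with complex IV. Ndufa4l2 was dim, at 7.54 and 7.42 in low glucose, against 7.58 and 7.80 in TGF-beta1. Both TGF-beta1 arrays were above both low glucose arrays, with LG1 and TGF1 close to each other. It rose by 0.21 ± 0.065 (SE), 16.1%, with an adjusted p of 0.0078 in limma's blocked fit. Ndufa4 itself read 11.64 and 11.74 in low glucose, against 11.59 and 11.54 in TGF-beta1, a difference of -0.12 ± 0.061 that did not pass (adjusted p = 0.15). The difference between the paralogues was not tested.

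**Figure D3:**
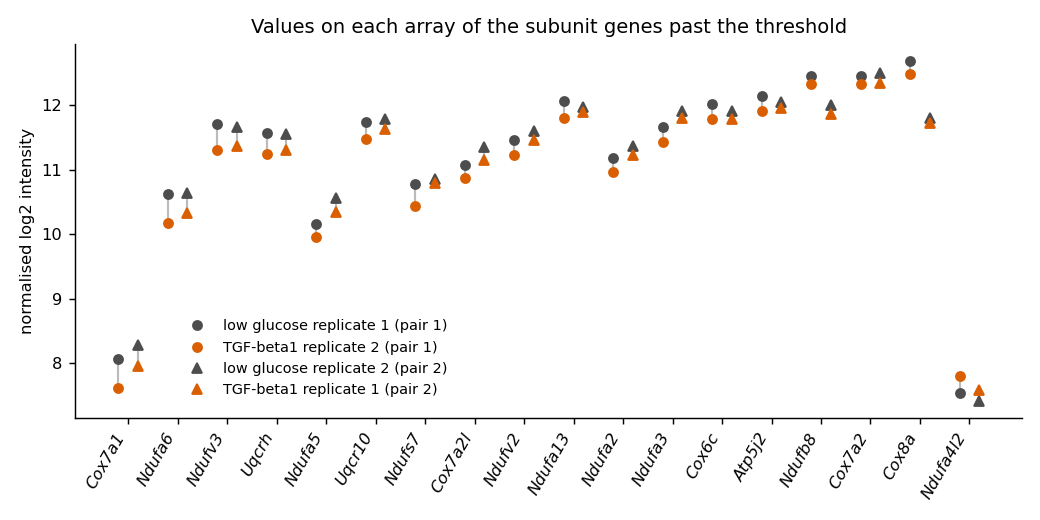
Normalised log2 intensity (vertical axis) on each of the 4 arrays for the 18 subunit genes called in limma's blocked fit (horizontal axis, by difference), with low glucose arrays in grey, TGF-beta1 arrays in orange, pair 1 as circles, pair 2 as triangles and a line joining each pair. In 17 genes the orange point of each pair is the lower one and in Ndufa4l2 the higher one, while in 7 (Cox8a, Ndufb8, Ndufa5, Ndufa3, Cox7a2l, Ndufa2 and Ndufs7) the pairs lie farther apart than the groups.

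Complex II, the succinate dehydrogenase, is the one complex encoded wholly in the nucleus. All 4 genes were lower, with a median of -0.13 (-0.13 and -0.12 within pairs 1 and 2), and 0 of the 4 passed limma's blocked fit, with 2 (Sdha and Sdhd) at an unadjusted p under 0.05, beside 29.7% of all genes at that level in either direction. Sdha, the flavoprotein that oxidises succinate, read 10.31 and 10.30 in low glucose, against 10.13 and 10.14 in TGF-beta1. Its arrays lay close within each group and did not overlap, and the difference was -0.17 ± 0.080 (SE, n = 2 per group), -0.17 in each pair, with an adjusted p of 0.132. Sdhd, a membrane anchor, read 11.06 and 10.95 in low glucose, against 10.84 and 10.81 in TGF-beta1, a difference of -0.18 ± 0.073 (adjusted p = 0.0651). Sdhb, the iron-sulfur subunit, differed by -0.08 ± 0.064 (adjusted p = 0.462). Sdhc, the other anchor, read 11.21 and 10.85 in low glucose, against 10.72 and 11.17 in TGF-beta1, so that its arrays differed more by pair than by group (-0.09 ± 0.072, adjusted p = 0.429). At an unadjusted p under 0.05 the fit without the block listed 0 of the 4.

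Complex III, the cytochrome bc1 complex, had a median of -0.09 (-0.11 and -0.05 within pairs 1 and 2), with 7 of 8 genes lower. Of the 8, 2 fell, beside 10.6% of all genes. Both are small subunits. Uqcrh, the acidic hinge protein at the cytochrome c docking side, read 11.57 and 11.56 in low glucose, against 11.31 and 11.25 in TGF-beta1. The groups did not overlap, and it fell by 0.28 ± 0.065 (SE), 17.9%, with an adjusted p of 0.000192 in limma's blocked fit. Without any 1 array the difference stayed between -0.31 and -0.26. Uqcr10 read 11.75 and 11.79 in low glucose, against 11.63 and 11.48 in TGF-beta1 and fell by 0.21 ± 0.061, 13.6%, with an adjusted p of 0.00494. Its value at another probe set, used where probe sets that can match several transcripts were left out, was -0.09 and did not pass (adjusted p = 0.481). That probe set had a mean log2 intensity of 8.82, and a brighter one, at 11.27, read -0.22.

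The larger subunits of complex III did not pass. Uqcrfs1, the Rieske iron-sulfur protein that passes electrons on, differed by -0.04 ± 0.068 (adjusted p = 0.74), and the core proteins Uqcrc1 and Uqcrc2 by -0.01 ± 0.071 (0.926) and -0.07 ± 0.079 (0.587). Uqcrq read 11.73 and 11.42 in low glucose, against 11.46 and 11.72 in TGF-beta1. It differed by pair and hardly by group (0.02 ± 0.062, adjusted p = 0.89), and with arrays centred on their medians the sign turned, to -0.01.

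Complex IV, cytochrome c oxidase, had values on both sides of 0, with 9 of 13 tested genes lower. Of the 13, 5 fell, beside 10.6% of all genes, and the median of the complex was -0.06 (-0.11 and -0.01 within pairs 1 and 2). Several of its subunits come as a widely expressed form and a form known from heart, muscle, lung or testis. The 8 widely expressed subunits had a median of -0.07, with 7 lower and 3 that fell, beside the 10.6% of all genes that fell. The 4 tested tissue isoforms had a median of 0.07, with 1 lower. That 1 was Cox7a1, the heart and muscle isoform of subunit 7a, which read 8.07 and 8.28 in low glucose, against 7.95 and 7.61 in TGF-beta1. It did not overlap between groups and fell by 0.40 ± 0.065 (SE), 24%, the largest fall of any subunit gene tested, with an adjusted p of 3.63e-08 in limma's blocked fit.

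Its widely expressed counterpart Cox7a2 read 12.45 and 12.51 in low glucose, against 12.35 and 12.34 in TGF-beta1 and fell by 0.14 ± 0.048 (SE), with an adjusted p of 0.0243 in limma's blocked fit. Cox7a2l, a related protein that joins complexes III and IV into supercomplexes, read 11.07 and 11.35 in low glucose, against 11.16 and 10.87 in TGF-beta1. The groups overlapped, and it fell by 0.20 ± 0.070 (adjusted p = 0.0273) through like differences of -0.21 and -0.19 in the pairs. The differences between the 3 paralogues were not tested. Cox7b had no probe set with 1 symbol here, and the probe sets of Cox7b2 and Cox7c were too dim to be tested. A dim probe set does not show that its gene is silent in these cells.

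Cox6c, a small membrane subunit, read 12.02 and 11.92 in low glucose, against 11.79 and 11.79 in TGF-beta1. It did not overlap and fell by 0.18 ± 0.057 (SE), with an adjusted p of 0.0138 in limma's blocked fit. Cox8a, the widely expressed subunit 8, read 12.69 and 11.81 in low glucose, against 11.73 and 12.49 in TGF-beta1. Its pairs lay much farther apart than its groups, and the fall of 0.14 ± 0.052 (adjusted p = 0.0375) was -0.20 in pair 1 and -0.08 in pair 2.

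The remaining pairs of isoforms of complex IV did not pass. Cox4i1 differed by -0.04 ± 0.047 (adjusted p = 0.599) and Cox4i2, known from lung and for its response to oxygen, by 0.05 ± 0.070 (0.677). Cox5a differed by 0.01 ± 0.059 (0.947), a sign that turned to -0.01 with arrays centred on their medians, and Cox5b by -0.09 ± 0.044 (0.152). Cox6a1 differed by -0.06 ± 0.044 (0.412) and its heart and muscle form Cox6a2 by 0.09 ± 0.064 (0.368). Cox8c, the testis form, was dim, at 8.49 and 7.75 in low glucose, against 7.90 and 8.68 in TGF-beta1, and its difference of 0.17 ± 0.067 missed the threshold (0.0522). It passed, at 0.0496, where probe sets that can match several transcripts were left out and fewer genes were tested. Cox6b1 differed by -0.04 ± 0.051 (0.606), and Cox6b2 and Cox8b were too dim to be tested.

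**Figure D4:**
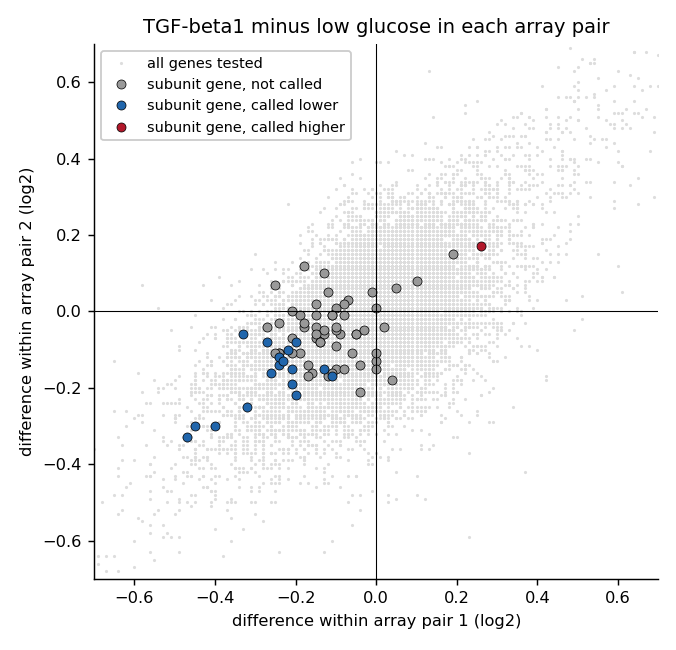
Each point is 1 gene, placed by its TGF-beta1 minus low glucose log2 difference within pair 1 on the horizontal axis and within pair 2 on the vertical axis, with all tested genes as pale dots and the subunit genes as large points (blue called lower, red called higher, grey not called). Genes beyond the axis limits are not drawn. Of the 76 subunit genes 59 lie below 0 on both axes and 5 above 0 on both.

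In complex V, the ATP synthase, all 17 genes were lower, within a range from -0.16 to -0.03, with a median of -0.10 (-0.14 and -0.08 within pairs 1 and 2). In 7 of them both TGF-beta1 arrays lay below both low glucose arrays, beside 11.1% of all genes. Only 1 of the 17 fell, beside 10.6% of all genes. That gene was Atp5j2, the f subunit of the membrane part, which read 12.14 and 12.06 in low glucose, against 11.96 and 11.92 in TGF-beta1 (-0.16 ± 0.055, adjusted p = 0.0214 in limma's blocked fit). Its groups did not overlap, and its other probe sets read -0.20 and -0.08.

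The 3 genes of the c ring, whose rotation drives the enzyme, encode the same mature protein and can be told apart here only by their transcripts. Atp5g1 read 11.53 and 11.58 in low glucose, against 11.57 and 11.34 in TGF-beta1 (-0.10 ± 0.063, adjusted p = 0.285). Atp5g2 read 11.98 and 11.97 in low glucose, against 11.91 and 11.82 in TGF-beta1 (-0.11 ± 0.056, 0.195), with no overlap. Atp5g3 read 12.90 and 12.84 in low glucose, against 12.69 and 12.89 in TGF-beta1 (-0.08 ± 0.042, 0.214). The differences of these 3 genes lay closer to each other than the standard error of any of them.

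The F1 head and central stalk, which hold the catalytic sites and the rotor, had a median of -0.06 over 5 genes. Atp5b, the catalytic beta subunit, differed by -0.09 ± 0.052 (adjusted p = 0.251), Atp5a1 by -0.06 ± 0.054 (0.503) and Atp5d by -0.03 ± 0.060 (0.806). The peripheral stalk, which holds the head still, had a median of -0.11 over 4 genes, and its coupling factor Atp5j differed by -0.13 ± 0.063 (0.157). The other membrane subunits had a median of -0.14 over 5 genes, among them Atp5md at -0.14 ± 0.060 (0.0829). Atp5md passed, at -0.17 and 0.0322, with arrays centred on their medians. None of these differences between parts of the enzyme was tested.

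Single arrays weighed on many of the 18 calls. A fit without 1 array cannot hold the block, and it called 0 subunit genes whichever array was left out. Differences moved by over 1.5 times for 11 of the 18. The sign turned for Cox8a without LG1 (0.30) or TGF1 (0.24), and it was -0.57 and -0.53 without LG2 and TGF2. The sign turned also for Ndufb8 without LG1 (0.09) or TGF1 (0.09), with -0.36 and -0.37 without LG2 and TGF2. For Ndufa3 it turned without TGF2 (0.01), and the value was -0.30 without LG1 and -0.37 without TGF1.

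Without TGF2 the difference shrank to -0.23 for Cox7a1, -0.14 for Uqcr10, -0.08 for Ndufv2, -0.05 for Ndufa2, -0.05 for Cox7a2l, -0.02 for Ndufa5, -0.02 for Ndufs7 and 0.11 for Ndufa4l2. Without LG2 it shrank to -0.12 for Ndufv2, -0.08 for Ndufa2, -0.06 for Cox7a2l and -0.01 for Ndufa5. Without TGF1 it grew to -0.39 for Ndufa5, -0.38 for Ndufs7, -0.31 for Ndufa2, -0.30 for Cox7a2l and -0.30 for Ndufv2. Without LG1 it grew to -0.40 for Ndufa5, -0.34 for Cox7a2l and -0.27 for Ndufa2. The 7 that moved less were Ndufa6, Ndufv3, Uqcrh, Cox6c, Cox7a2, Ndufa13 and Atp5j2. The median of the 76 was -0.12, -0.12 and -0.15 without LG1, without LG2 or without TGF1, and -0.07 without TGF2, the array with the lowest median level of these genes.

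The medians of the complexes moved with single arrays too, and their order did not hold. Complex I ran from -0.20 without TGF1 to -0.07 without TGF2, and complex II from -0.21 without LG2 to -0.11 without LG1. Complex III ran from -0.19 without TGF1 to -0.09 without TGF2, with -0.14 without LG2. Complex IV ran from -0.11 without LG2 to 0.00 without LG1, and complex V from -0.15 without TGF1 to -0.06 without TGF2. Complex II was lower than complex I without LG2 (-0.21 against -0.13), without TGF2 (-0.17 against -0.07) and where probe sets that can match several transcripts were left out (-0.17 against -0.11).

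Further genes of respiration were read from lists that had also been drawn up with earlier results known. Carriers and subunits that the naming rule leaves out were lower in 10 of 10 tested, with a median of -0.09, and 2 fell, beside the 10.6% of all genes. Etfb, the beta chain of the flavoprotein that hands electrons from fatty acid oxidation to coenzyme Q, read 11.40 and 11.06 in low glucose, against 10.87 and 11.02 in TGF-beta1. It did not overlap and fell by 0.28 ± 0.070 (SE), with an adjusted p of 0.000695 in limma's blocked fit, and the value was -0.11 without LG1 and -0.45 without LG2. Sqor, which feeds electrons from sulfide into coenzyme Q, fell by 0.21 ± 0.079 (adjusted p = 0.0394), with -0.13 without LG2, and a probe set used where those that can match several transcripts were left out read 0.04. Dhodh, which feeds electrons from pyrimidine synthesis, differed by -0.13 ± 0.066 (adjusted p = 0.187). Of the 13 genes of mitochondrial DNA only ND5 had a probe set here. It fell by 0.22 ± 0.059 (adjusted p = 0.00224), with -0.09 in pair 1 and -0.35 in pair 2. The value for ND5 was -0.51 without LG1, 0.06 without LG2, -0.38 without TGF1 and -0.06 without TGF2.

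Assembly factors, which build the complexes and are not part of them, were lower in 37 of 46 tested, with a median of -0.05. Of these, 9 fell (beside the 10.6% of all genes) and 0 rose, with 13 lower and 4 higher at an unadjusted p under 0.05 in the same fit, beside the 29.7% of all genes. Tmem126b, of the complex I assembly machinery, read 7.37 and 7.89 in low glucose, against 7.44 and 7.09 in TGF-beta1. The groups overlapped, and its fall of 0.37 ± 0.066 (SE, adjusted p = 6.82e-07 in limma's blocked fit) became -0.64 without LG1, -0.11 without LG2 and -0.20 without TGF2. Cox20, a chaperone of complex IV assembly, read 9.16 and 9.30 in low glucose, against 8.98 and 8.76 in TGF-beta1 and fell by 0.36 ± 0.079 (adjusted p = 8.33e-05). Coa3, which acts early in complex IV assembly, read 11.50 and 11.50 in low glucose, against 11.29 and 11.03 in TGF-beta1 and fell by 0.34 ± 0.066 (adjusted p = 7.87e-06), with -0.21 without TGF2. Neither Cox20 nor Coa3 overlapped between groups. Coa6, Sdhaf1, Sdhaf4, Uqcc3, Cox10 and Surf1 were the others that fell.

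Genes of coenzyme Q synthesis went both ways, with 5 of 12 tested lower and a median of 0.01. Of these, 2 fell and 2 rose, beside 10.6% and 7.95% of all genes. Coq10b, a coenzyme Q binding protein, had deposited intensities of 475 and 586 in low glucose, against 959 and 784 in TGF-beta1, with no overlap. It rose by 0.67 ± 0.082 (SE), with an adjusted p of 2.34e-14 in limma's blocked fit and like differences of 0.67 and 0.68 in the pairs. Coq9, a lipid-binding protein of the synthesis complex, fell by 0.31 ± 0.082 (adjusted p = 0.00222), with -0.19 without LG1. Coq8a, an atypical kinase of the pathway, rose by 0.18 ± 0.064 (adjusted p = 0.0269), but another of its probe sets, used where those that can match several transcripts were left out, read -0.52 (adjusted p = 1.08e-13), so its direction is not settled here.

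Among 17 tested regulators of respiratory genes and mitochondrial DNA, 3 fell and 2 rose, beside 10.6% and 7.95% of all genes, with a median of -0.04. Ppargc1a, which encodes the coactivator PGC-1alpha, had deposited intensities of 168 and 177 in low glucose, against 107 and 105 in TGF-beta1. Both TGF-beta1 arrays were lower, and it fell by 0.53 ± 0.065 (SE), with an adjusted p of 3.51e-14 in limma's blocked fit and -0.54 and -0.52 in the pairs. Without any 1 array the difference stayed between -0.65 and -0.41. Ppargc1a was dim, since the median intensity of the array was 80.3 in TGF1 and 99.6 in TGF2. Gabpa, the DNA-binding subunit of GABP, fell by 0.27 ± 0.065 (adjusted p = 0.000489), by -0.34 and -0.20 in pairs 1 and 2, with -0.14 without LG1. Gabpb1, its partner subunit in GABP, read 7.97 and 8.11 in low glucose, against 8.31 and 8.13 in TGF-beta1, and rose by 0.18 ± 0.066 (adjusted p = 0.0409). The rise of Gabpb1 was 0.11 without LG1, 0.09 without TGF1 and 0.28 without TGF2, and it did not pass with arrays centred on their medians (0.15, adjusted p = 0.0913) or with no filter (adjusted p = 0.0856). Pprc1, a coactivator related to PGC-1alpha, read 10.05 and 9.17 in low glucose, against 9.47 and 10.35 in TGF-beta1. It rose by 0.30 ± 0.082 (adjusted p = 0.00281) although its groups overlapped widely, and the value was 0.74 without LG1 or TGF1 and -0.14 without LG2 or TGF2.

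**Figure D5:**
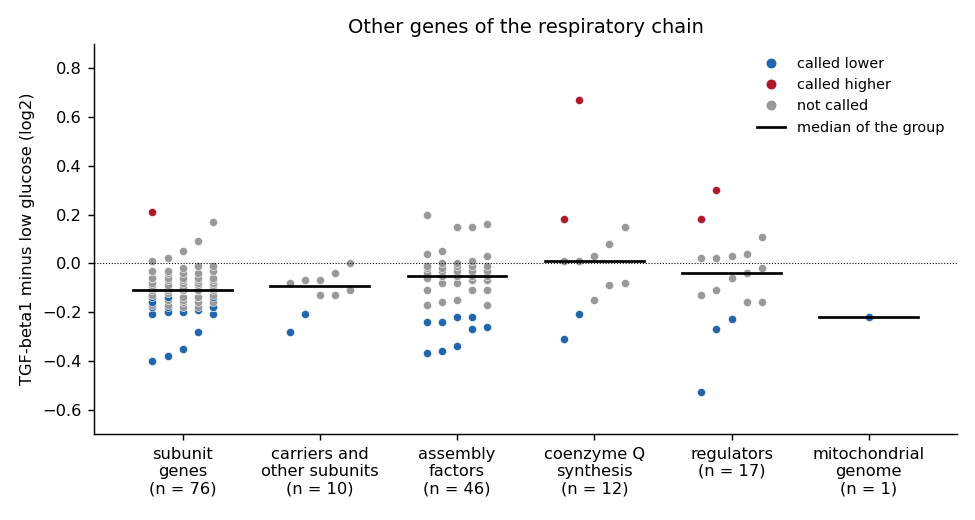
Log2 difference, TGF-beta1 minus low glucose, of each tested gene in the subunit genes and in the other lists of respiration, with a bar at the median of each list, blue for genes called lower in limma's blocked fit, red for those called higher and grey for the rest. The subunit genes have a median of -0.11, and the regulators and coenzyme Q genes spread on both sides of 0, with Ppargc1a at -0.53 and Coq10b at 0.67.

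Marker genes were read to check the labelled cell type. Of 10 mesangial and pericyte markers 8 were tested. Vim was bright (4346 to 6239) and Acta2 read 109 to 157, while Pdgfrb (87.2 to 118), Itga8 (65.2 to 76) and Thy1 (27.7 to 52.8) lay near or under the array medians. On each array Lrp2 (375 to 494), Podxl (236 to 423) and Epcam (112 to 339), of the tubule and podocyte lists, read above Pdgfrb, Itga8 and Thy1. Cdh1 (34.7 to 46.5), Slc34a1 (45 to 58.2) and Wt1 (41.1 to 62.1), of the same lists, were too dim to be tested. Tagln (0.88 ± 0.071), Acta2 (0.32 ± 0.066, and 0.18 without TGF1) and Vim (0.29 ± 0.049), smooth muscle and cytoskeletal genes, rose in limma's blocked fit, while Des (-0.10 ± 0.065) and Myl9 (-0.07 ± 0.078) did not pass. Summed intensity of the mesangial list was 5197 to 6033 in low glucose and 6476 to 7420 in TGF-beta1, mostly through Vim, which many other cell types express. The macrophage list summed to 1558 to 1919 and 1243 to 1575, mostly through Csf1r, with Ptprc at 24.2 to 35.8. The other lists gave 580 to 738 and 545 to 778 (podocyte), 835 to 1107 and 754 to 1029 (tubule), 219 to 277 and 203 to 288 (endothelial) and 287 to 417 and 312 to 467 (fibroblast). Among these other lists Synpo, a podocyte gene, fell by 0.58 ± 0.065 (adjusted p = 5.39e-17 in limma's blocked fit), with -0.36 without TGF2. Csf1r, a macrophage receptor, fell by 0.38 ± 0.079 (adjusted p = 2.92e-05), with -0.24 without LG1 and -0.21 without TGF1. Lrp2, a tubule receptor, fell by 0.29 ± 0.077 (adjusted p = 0.00176). Podxl, another podocyte gene, rose by 0.23 ± 0.072 (adjusted p = 0.0102), with 0.45 without LG1 or TGF1, 0.02 without LG2 and 0.01 without TGF2. No marker was at 0, and the part of these levels in the results was not tested.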

How the data were processed

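Total RNA of mouse mesangial cells was read on 4 arrays, 2 per group, grouped by title. The authors deposited 1 linear intensity per probe set and array. The sources used here do not say how these were summarised and scaled. Genes came from the platform annotation: leaving out 64 control probe sets, 34945 of 45037 had 1 symbol, 932 several and 9160 none. The deposited intensities were turned here into log2(intensity + 46.88), the 25th percentile of all values, quantile-normalised, and filtered at the 40th percentile of the mean (6.85), which 27022 probe sets reached, with the probe set of highest mean per gene (13565 genes). Differences were tested two-sided in limma 3.58.1 under R 4.3.3 (lmFit, then eBayes with trend), with the array pair as a block and Benjamini-Hochberg adjustment. The script was tested on simulated data that gave every gene the same noise. That simulation therefore cannot check the infinite prior on which the calls rest. Promoters were searched in Python 3.11.15 and plots drawn with matplotlib 3.10.9.

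Replicate numbers follow accession order and pair nothing. The pairing came from the spike-ins. The titles carry repeat tags whose meaning is not stated: those of pair 1 are alike, and pair 2 holds a numbered tag and none, so the tags do not establish the pairs. The members, lists, block and naming rule were chosen with earlier results of these data known. The rule names, per complex, the members with the largest rise and fall, every member past the threshold, isoform families, complex I core subunits, the Sdh genes, and up to 3 genes per other list. Uqcrfs1, Uqcrc1, Uqcrc2, Atp5b, Atp5a1, Atp5d, Ndufb2, Ndufa7 and Gabpb1, the markers given with values, the genes that complete the count of assembly factors and those whose promoters are shown were named outside it, after their values were seen. Alternatives were no block, another prior, pseudocounts of 16 and 100, median centring, the authors' scaling, a filter at the 60th percentile or none, leaving out probe sets that can match several transcripts, and leaving out each array. The 5 members too dim to be tested had mean log2 intensities of 6.30 to 6.71.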

Additional observations from a re-analysis of the deposited data

How the results depend on the processing

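Without the replicate block that stands for the array pairs, limma called 0 genes in all, 0 subunit genes lower and 0 higher, and the same counts of 0, 0 and 0 came from the blocked fit with the prior of 2.79 degrees of freedom. The block changed no difference, since the layout is balanced. Leaving out 1 array at a time, without the block, gave 0 to 13 genes called in all and 0 subunit genes called lower or higher. Under the other alternatives 12 to 19 subunit genes were called lower, 13 with the authors' scaling and 19 with median centring, which shared 17 with the 17 reported. The share of called genes that were higher was 42.8%, 46.1% with the authors' scaling and 33.4% with median centring. Leaving out probe sets that can match several transcripts gave 2 called higher, with Cox8c added. In the 9 alternatives that keep all arrays the median of the subunit genes ran from -0.13 to -0.10, and 11 of the 18 called genes kept their call under every blocked alternative that tested them, apart from the one with the smaller prior. Signs turned with median centring for Cox5a (-0.01) and Uqcrq (-0.01), and without probe sets that can match several transcripts for Sqor (0.04) and Coq8a (-0.52). When 1 array was left out, the sign turned in part of the range for Atp5g1 (-0.22 to 0.01), Atp5g3 (-0.18 to 0.03), Atp5md (-0.30 to 0.01), Cox4i1 (-0.09 to 0.00), Cox4i2 (-0.08 to 0.18), Cox5a (-0.08 to 0.09), Cox6a1 (-0.12 to 0.01), Cox6a2 (-0.12 to 0.30), Cox6b1 (-0.11 to 0.01), Cox8a (-0.57 to 0.30), Cox8c (-0.22 to 0.56), Dhodh (-0.46 to 0.22), ND5 (-0.51 to 0.06), Ndufa3 (-0.37 to 0.01), Ndufb8 (-0.37 to 0.09), Ndufs8 (-0.07 to 0.03), Ndufv1 (-0.13 to 0.01), Pprc1 (-0.14 to 0.74), Sdhc (-0.32 to 0.13) and Uqcrq (-0.14 to 0.18). The cause was not tested.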
